A study of Homo sapiens with 24 samples.

Results

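SLC6A14, the most variable amino acid transporter on 24 arrays, was followed in the human hepatoma line Huh7.5.1. The gene was chosen by its spread over the arrays, so its levels are given as a description. It was measured by 1 probe set and is 1 of 18274 genes. The groups were silymarin for 4 h (4 arrays), DMSO for 4 h (4 arrays), silymarin for 8 h (3 arrays), DMSO for 8 h (5 arrays), silymarin for 24 h (3 arrays) and DMSO for 24 h (5 arrays). Silymarin is a flavonolignan extract of milk thistle, and DMSO is its solvent. All cultures carry the word novirus in their titles, the labels give no dose of silymarin, and all groups share 1 cell line. The labels do not state whether replicates are separate cultures, so p-values measure only the spread between these samples, which may be technical. Levels are log2 values after robust multi-array averaging (RMA), so a difference of 1 is a 2-fold difference.

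SLC6A14 encodes ATB0,+, a plasma membrane transporter that uses the sodium and chloride gradients to bring neutral and cationic amino acids into the cell. It is known from mucosal epithelia such as those of the airway and colon, and it is raised in several carcinomas. Other amino acid carriers, such as SLC7A5 with its partner SLC3A2, are exchangers, and many of them are transcribed by ATF4, the factor that acts when amino acids run short or the endoplasmic reticulum is stressed. Inflammatory chemokines are secreted attractants of leukocytes, and many are transcribed by NF-kB.

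The window before the SLC6A14 start is shown with those of CXCL6 and CXCL8, chemokines that it was set against. The sequences are the 250 bases before each start in RefSeq (GRCh38.p14), 5′ to 3′ on the plus strand. They lie at chrX:116436356-116436605 for SLC6A14, chr4:73836428-73836677 for CXCL6 and chr4:73740319-73740568 for CXCL8. Capitals mark matches to the AP-1 element TGANTCA, the NF-kB consensus GGGRNWYYCC and the TATA box letters TATAAA, searched on both strands. In these, N is any base, R is A or G, W is A or T, and Y is C or T.
SLC6A14: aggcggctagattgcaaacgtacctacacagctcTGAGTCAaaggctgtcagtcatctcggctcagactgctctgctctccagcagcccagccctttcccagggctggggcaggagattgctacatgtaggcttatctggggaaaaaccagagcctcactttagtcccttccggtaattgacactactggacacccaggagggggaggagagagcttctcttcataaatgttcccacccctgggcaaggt
CXCL6: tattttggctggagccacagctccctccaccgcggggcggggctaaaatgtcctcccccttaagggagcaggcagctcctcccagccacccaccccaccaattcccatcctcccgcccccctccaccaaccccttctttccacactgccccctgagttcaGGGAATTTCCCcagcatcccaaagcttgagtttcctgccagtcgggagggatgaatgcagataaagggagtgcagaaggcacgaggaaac
CXCL8: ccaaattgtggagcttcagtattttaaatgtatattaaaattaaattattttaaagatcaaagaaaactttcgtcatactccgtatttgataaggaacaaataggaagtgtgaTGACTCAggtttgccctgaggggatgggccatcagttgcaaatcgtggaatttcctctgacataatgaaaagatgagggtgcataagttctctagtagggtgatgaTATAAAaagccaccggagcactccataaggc
SLC6A14 held 1 AP-1 match, which begins 216 bases before the start. It held no match to the NF-kB consensus, to TATAAA or to the ATF4 element TGATGNAA. CXCL6 held an NF-kB match that begins 90 bases before the start and reads on both strands. CXCL8 held an AP-1 match 137 bases before the start and TATAAA 31 bases before it. It held no match to the NF-kB consensus, but its stretch tggaatttcc departs from that consensus only in the first letter. The search finds exact matches only, so a missing match does not show that a site is absent.

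Among 27305 genes with a promoter in the RefSeq table, 8.06% held an AP-1 match, 6.28% an NF-kB match, 3.89% the ATF4 element and 13.0% TATAAA. Of the 12 chemokines with a promoter there, 8 held an NF-kB match, and of 8 amino acid transporters listed as ATF4 targets none did (0). AP-1 matches stood before 3 of the 12 chemokines (CXCL8, CXCL11 and CCL7) and 1 of the 8 transporters (SLC3A2). The ATF4 element stood before 1 transporter, SLC1A5. These are matches of letters in a window and show no binding.

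SLC6A14 ranged from 5.32 to 10.28 over the 24 arrays, with a median of 8.47, which is a 31.2-fold range. Its SD was 1.13, against a median SD of 0.127 over all genes, and it ranked 3 of 18274. CXCL10 (SD 1.19), an interferon- and NF-kB-responsive chemokine, and DDIT4 (SD 1.14), a stress-induced inhibitor of mTORC1, lay just above it. CHAC1 (SD 1.11), a glutathione-degrading ATF4 target, and KRT23 (SD 0.88), a keratin, lay just below. Most of this spread was inside the groups, where the residual SD of SLC6A14 was 1.07 against a median of 0.123 over all genes. Its mean of 8.20 was at the 54.5th percentile of gene means, so it was a gene of middling level.

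At 4 h, SLC6A14 read 8.04, 9.37, 9.66 and 8.39 on the silymarin arrays, against 6.35, 8.59, 8.34 and 8.39 on the DMSO arrays. The groups overlapped, with DMSO replicate 1 far under the other DMSO arrays. At 8 h, it read 7.85, 8.75 and 7.75 with silymarin, against 6.07, 8.60, 8.64, 5.32 and 7.80 with DMSO. Silymarin replicate 2 lay just above all DMSO arrays, and the other silymarin arrays lay inside the DMSO range, which was wide, with DMSO replicates 1 and 4 low. At 24 h, it read 7.77, 9.16 and 10.28 with silymarin, against 7.01, 8.65, 8.54, 9.01 and 8.57 with DMSO. These groups overlapped too, with silymarin replicate 3 the highest of all arrays and DMSO replicate 1 low in its group.

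**Figure D1:**
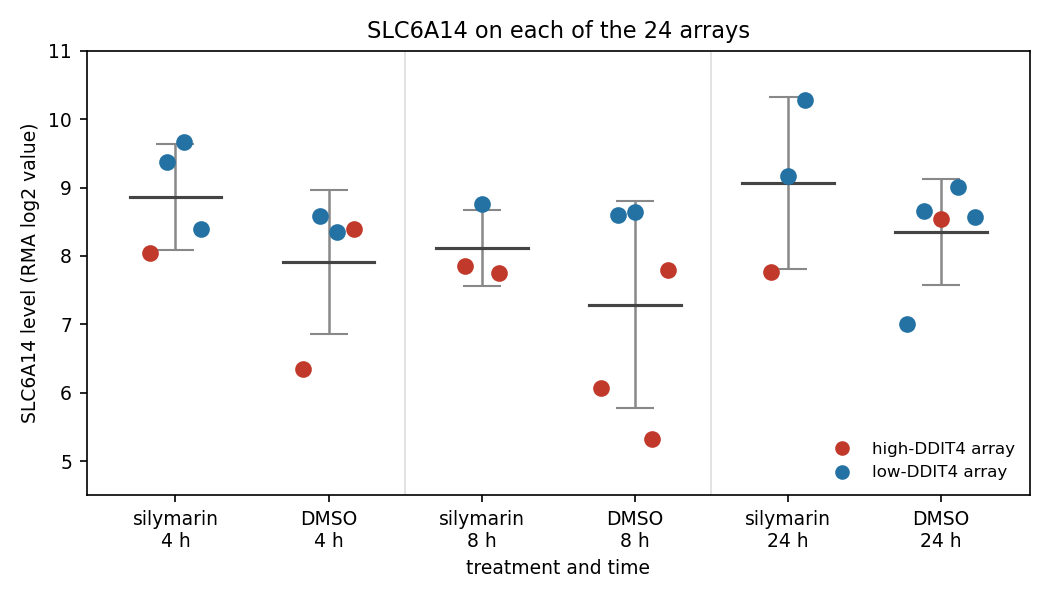
SLC6A14 level (RMA log2 value) on each array by treatment and time. Points are arrays, coloured by whether DDIT4 was high (red) or low (blue), horizontal lines are group means and bars are SDs. Every silymarin group overlaps its DMSO group, and the 3 arrays under 7 are all DMSO.

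SLC6A14 was higher on average with silymarin at each time, by an amount smaller than its spread. At 4 h it averaged 8.87 ± 0.77 with silymarin and 7.92 ± 1.05 with DMSO (SD, n = 4 each), a log2 difference of 0.95 (SE 0.67, 95% confidence interval -0.43 to 2.33, limma adjusted p = 0.99993). At 8 h it averaged 8.12 ± 0.55 with silymarin (n = 3) and 7.29 ± 1.51 with DMSO (n = 5), a difference of 0.83 (SE 0.69, interval -0.59 to 2.26, limma adjusted p = 0.991). At 24 h it averaged 9.07 ± 1.26 with silymarin (n = 3) and 8.36 ± 0.78 with DMSO (n = 5), a difference of 0.72 (SE 0.69, interval -0.71 to 2.14, limma adjusted p = 0.9997). None of the 3 differences passed. In each of these comparisons 0% of the 18274 genes passed an adjusted p of 0.05, while 453, 719 and 553 genes had an unadjusted p under 0.05 at 4, 8 and 24 h.

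By size alone the SLC6A14 difference was among the highest of all genes, ranking 2 at 4 h, 4 at 8 h and 1 at 24 h. It also ranked 2 between DMSO at 8 h and DMSO at 4 h, and a gene chosen for a high SD can rank high by size in any of these comparisons. Averaged over the 3 times, a contrast added after seeing the data, it was 0.83 (SE 0.39, interval 0.017 to 1.65), the highest of all genes. Its unadjusted p was 0.0457 in limma, and its adjusted p was 0.99986. Of the 5 arrays above 9, 4 were silymarin, and the 4 lowest arrays were all DMSO. The averaged difference was 0.63 without silymarin 24 h replicate 3 and 1.05 without silymarin 24 h replicate 1, the extremes of leaving out each array.

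The silymarin difference in SLC6A14 did not change detectably between times. The change was -0.12 between 4 and 8 h (SE 0.96), -0.12 between 8 and 24 h (SE 0.98) and -0.23 between 4 and 24 h (SE 0.96), with limma adjusted p of at least 0.995. In the solvent alone, SLC6A14 was 0.63 lower at 8 h than at 4 h (log2 difference -0.63, SE 0.63, limma adjusted p = 0.811). At 24 h in the solvent it differed from 4 h by 0.44 (SE 0.63, limma adjusted p = 0.99992). In each of these 5 comparisons 0% of genes passed, and 433, 746, 551, 1188 and 310 genes had an unadjusted p under 0.05, in the order given. CXCL6, a chemokine described below, differed between silymarin and DMSO by 0.77, 0.44 and -0.091 at 4, 8 and 24 h, CXCL10 by 1.01, 1.02 and -0.48, and SLC7A5 by 0.024, -0.020 and 0.34, and none passed. The sign of the changes between times and of the 24 h solvent difference turned when single arrays were left out.

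The arrays fell into separate sets by DDIT4, and the sets crossed the labelled groups. DDIT4 lay between 9.67 and 10.34 on 10 arrays and between 7.50 and 8.35 on 14, with none in the gap. The 10 high-DDIT4 arrays comprised 4 silymarin and 6 DMSO arrays, and the 14 low-DDIT4 arrays comprised 6 silymarin and 8 DMSO arrays. SLC6A14 lay between 7.75 and 8.04 on the 4 high-DDIT4 silymarin arrays and between 5.32 and 8.54 on the 6 high-DDIT4 DMSO arrays. It lay between 8.39 and 10.28 on the 6 low-DDIT4 silymarin arrays and between 7.01 and 9.01 on the 8 low-DDIT4 DMSO arrays. Treatment ranges overlapped within both sets. With DDIT4 as a covariate the averaged silymarin difference was 0.89 (limma adjusted p = 0.992). The sets were defined from these data and are not groups of the study, and what separates them was not tested.

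Of 17 inflammatory chemokines, 8 were higher where SLC6A14 was higher within groups, 0 passed within the 14 low-DDIT4 arrays and 1 passed without the 3 arrays where SLC6A14 was under 7. Of all 18273 other genes, 1322, 104 and 640 passed in these fits, in either direction. CXCL6, a neutrophil attractant, ranged from 6.78 to 9.46 with a median of 8.63 over the 24 arrays. It was lowest on the 3 arrays where SLC6A14 was under 7, namely DMSO 8 h replicate 4 (6.78), DMSO 4 h replicate 1 (7.35) and DMSO 8 h replicate 1 (7.36). CXCL16, a membrane-bound chemokine that is shed to attract T cells, ranged from 7.16 to 8.47 with a median of 8.02. It was also lowest on those arrays, at 7.16, 7.60 and 7.49, and its next lowest values were on other high-DDIT4 arrays.

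Each other gene was regressed on SLC6A14 with the 6 group means held, so that treatment and time do not enter the slope. Of 17 chemokines, 8 rose with SLC6A14 and 0 fell at an adjusted p of 0.05, where 4.68% of all other genes rose and 2.55% fell. With the DDIT4 level added to the fit 4 of the 17 passed, where 198 of all genes passed in either direction. The 8 were CXCL1, CXCL5, CXCL6, CXCL8, CXCL10, CXCL16, CX3CL1 and CCL20. Per log2 of SLC6A14, CXCL6 was higher by 0.44 (SE 0.056, limma adjusted p = 8.7e-05), CXCL5 by 0.45 (SE 0.067, limma adjusted p = 0.00038) and CXCL16 by 0.21 (SE 0.028, limma adjusted p = 0.00018). CXCL10 had the steepest slope of the list, 0.75 (SE 0.14, limma adjusted p = 0.0032). Slopes were above 0 for 15 of the 17, with a median of 0.20 against -0.0010 over all genes. CCL2, CCL3, CCL5, CXCL9 and CXCL11 had slopes between -0.016 and 0.026 that did not pass. Their levels were low and spanned little. CXCL9 lay between 3.97 and 4.38, CXCL11 between 3.65 and 4.38 and CCL5 between 5.42 and 5.89. CCL2 lay between 5.86 and 6.38 and CCL3 between 6.70 and 7.32. The remaining chemokines CXCL2, CXCL3, CCL4 and CCL7 did not pass either, although CXCL2 spanned 6.69 to 8.32.

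Over all 24 arrays Pearson's r with SLC6A14 was 0.89 for CXCL16 and 0.87 for CXCL6, with Spearman's rho of 0.79 and 0.72 (unadjusted permutation p of 1e-05 for both r, the smallest that 100000 resamples can give). It was 0.85 for CXCL5, 0.82 for CXCL1, 0.80 for CCL20, 0.79 for CX3CL1, 0.78 for CXCL10 and 0.76 for CXCL8. In all, 27 genes were correlated in 3 sets of arrays, 81 relations, and 10 of the 17 chemokines had an unadjusted permutation p under 0.05 over all arrays. Without the 2 arrays farthest from the SLC6A14 median, DMSO 8 h replicates 1 and 4, r was 0.79 for CXCL16 and 0.75 for CXCL6, and 8 chemokines had a p under 0.05. The chemokines and SLC6A14 were already related in earlier results of these arrays, so the counts are no independent evidence.

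The chemokine relation rested largely on the 3 DMSO arrays with SLC6A14 under 7, all of them high in DDIT4. Without them, in a check added after seeing the data, 1 of the 17 chemokines passed in limma over the other 21 arrays. Of all 18273 other genes, 640 passed there in either direction. It was CXCL16, with a slope of 0.19 (SE 0.046, adjusted p = 0.035), while CXCL6 had a slope of 0.29 (SE 0.081, adjusted p = 0.056). Over these 21 arrays r was 0.73 for CXCL16, 0.62 for CXCL6, 0.54 for CXCL1 and 0.49 for CXCL5, and these 4 of 17 had an unadjusted permutation p under 0.05. The median r over the 17 was 0.25.

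Within the 10 high-DDIT4 arrays, r was 0.97 for CXCL5, 0.94 for CXCL6, 0.91 for CCL20 and 0.90 for CXCL16. There 9 of 17 chemokines rose with SLC6A14 and 0 fell in limma, where 2.94% of genes rose and 1.14% fell. Over the 7 of these arrays that were not under 7, where SLC6A14 spanned only 7.75 to 8.54, the median r was 0.0025 and 0 of 17 had an exact permutation p under 0.05. Within the 14 low-DDIT4 arrays, CCL20 (r = 0.69), CXCL16 (0.68) and CXCL6 (0.59) had an unadjusted permutation p under 0.05, and 0 did without the 2 farthest arrays. In limma 0 chemokines passed there, where 0.503% of genes rose and 0.0657% fell.

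**Figure D2:**
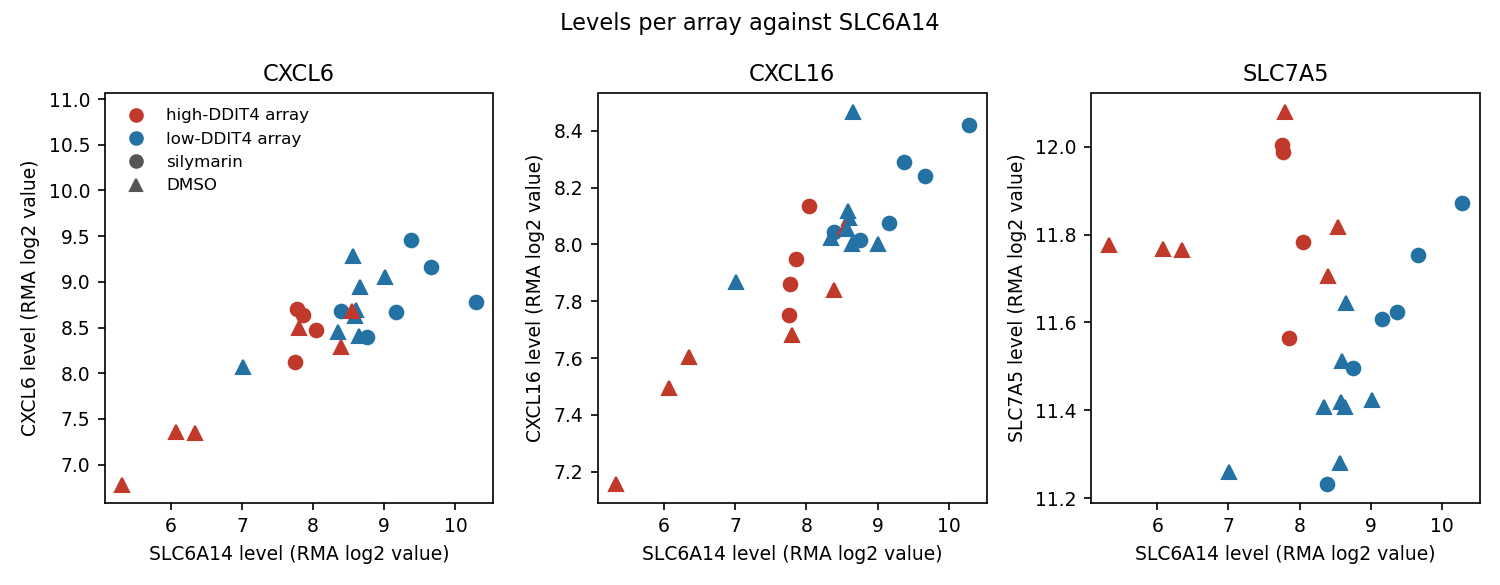
Levels (RMA log2 values) of CXCL6, CXCL16 and SLC7A5 against SLC6A14, 1 point an array, red for high-DDIT4 and blue for low-DDIT4 arrays, circles for silymarin and triangles for DMSO. CXCL6 and CXCL16 are lowest on the 3 DMSO arrays with SLC6A14 under 7. SLC7A5 climbs with SLC6A14 among the blue points (r = 0.83) and shows little relation among the red (r = 0.13).

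Genes of NF-kB feedback and its effectors were set against SLC6A14 in the same way. Of the 13 measured of 14 listed (BIRC3 was not measured), 7 rose with SLC6A14 within groups and 0 fell, where 4.68% of all genes rose and 2.55% fell. NFKB1, the p105/p50 subunit, had a slope of 0.16 (limma adjusted p = 0.0025), and IL18, a cytokine of the interleukin 1 family, had a slope of 0.53 (limma adjusted p = 0.0029) and r = 0.80 over the 24 arrays. NFKB1 lay in separate ranges, 9.35 to 9.64 on high-DDIT4 and 9.70 to 10.15 on low-DDIT4 arrays, and its r was 0.86 and 0.59 within these sets. Within the high-DDIT4 arrays 10 of 13 rose, where 2.94% of all genes did, and within the low-DDIT4 arrays 1 rose, IL18, where 0.503% did. These counts too include the 3 DMSO arrays under 7.

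Of 10 amino acid transporters that ATF4 is known to drive, 1 fell with SLC6A14 within groups over the 24 arrays and 0 rose. Of all other genes, 2.55% fell and 4.68% rose. The transporter that fell was SLC1A4, a carrier of alanine, serine and cysteine (slope -0.27, SE 0.065, limma adjusted p = 0.017). It ranged from 9.72 to 10.49 on high-DDIT4 arrays and from 9.16 to 9.69 on low-DDIT4 arrays, with no overlap, and its r within the low-DDIT4 arrays was 0.63. With the DDIT4 level added to the fit, without the 3 arrays under 7, or at an adjusted p of 0.01, 0 transporters passed. Of all genes, 198, 640 and 391 passed in these checks. SLC7A5, the exchanger of large neutral amino acids, ranged from 11.56 to 12.08 with a median of 11.78 on the 10 high-DDIT4 arrays, and from 11.23 to 11.87 with a median of 11.46 on the 14 low-DDIT4 arrays. SLC7A11, the cystine importer, ranged from 10.55 to 11.16 with a median of 10.81 on high-DDIT4 arrays, and from 8.93 to 10.13 with a median of 9.59 on low-DDIT4 arrays. SLC38A2 and SLC1A1 shifted little, with medians of 12.31 and 7.11 on high-DDIT4 arrays and 12.25 and 7.23 on low-DDIT4 arrays. Because SLC7A11, SLC3A2 and SLC1A4 lay in separate ranges, r is given for the list only within each set of arrays.

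Among the low-DDIT4 arrays alone, r with SLC6A14 was above 0 for 10 of the 10 transporters, with a median of 0.57 against -0.024 over all genes. It was 0.83 for SLC7A5 (rho 0.86, unadjusted permutation p = 0.00012 for r), and 0.77 without the 2 farthest arrays, silymarin 24 h replicate 3 and DMSO 24 h replicate 1. SLC6A9, the glycine transporter GLYT1 and a member of the same SLC6 family, had r = 0.76, or 0.64 without them. SLC1A5, a glutamine carrier, had r = 0.70 and SLC7A1, a cationic amino acid carrier, had r = 0.68, with 0.52 and 0.61 without the farthest arrays. Without those arrays r stayed above 0 for all 10 transporters. It was lowest for SLC3A2 (0.12, from 0.51) and SLC1A1 (0.16, from 0.075), and rose for SLC38A2 (0.78, from 0.43). In limma over these 14 arrays SLC7A5 (slope 0.21, SE 0.040, adjusted p = 0.025) and SLC6A9 (slope 0.29, SE 0.063, adjusted p = 0.049) rose with SLC6A14. They were 2 of the 10, where 0.503% of all genes rose. With the group means held in these 14 arrays 0 genes passed, and SLC7A5 had a slope of 0.19 (SE 0.063, unadjusted p = 0.0082, limma adjusted p = 0.603). SLC1A1 had the only slope below 0 of the list in that fit (-0.060, SE 0.13).

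Among the high-DDIT4 arrays, r was -0.83 for SLC6A9 and -0.66 for SLC1A4, and 5 of the 10 transporters had r above 0, with a median of -0.026. In limma SLC6A9 fell with SLC6A14 there (slope -0.29, adjusted p = 0.013), 1 of the 10, where 1.14% of all genes fell. Over the 7 of these arrays that were not under 7, r was -0.61 for SLC6A9 (exact permutation p = 0.154) and -0.66 for SLC1A4 (exact permutation p = 0.134). Without the 2 farthest arrays r was -0.70 for SLC6A9 (exact permutation p = 0.0151) and -0.45 for SLC1A4 (exact permutation p = 0.285). SLC38A2 then had r = 0.80 (exact permutation p = 0.019), from 0.54 over the 10 arrays. These p-values are unadjusted. Whether slopes depend on DDIT4 was tested, in a fit added after seeing the data, with the product of the SLC6A14 and DDIT4 levels over 24 arrays and the group means held. No chemokine or transporter of the lists passed (0 of 27). The lowest adjusted p among them was 0.246, for CXCL5, whose slope was higher by 0.25 per log2 of DDIT4 (SE 0.068), and SLC6A9 followed with a change of -0.21 (SE 0.063, limma adjusted p = 0.294). Over 18272 genes the slope rose with DDIT4 for 0.0109% and fell for 0%.

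**Figure D3:**
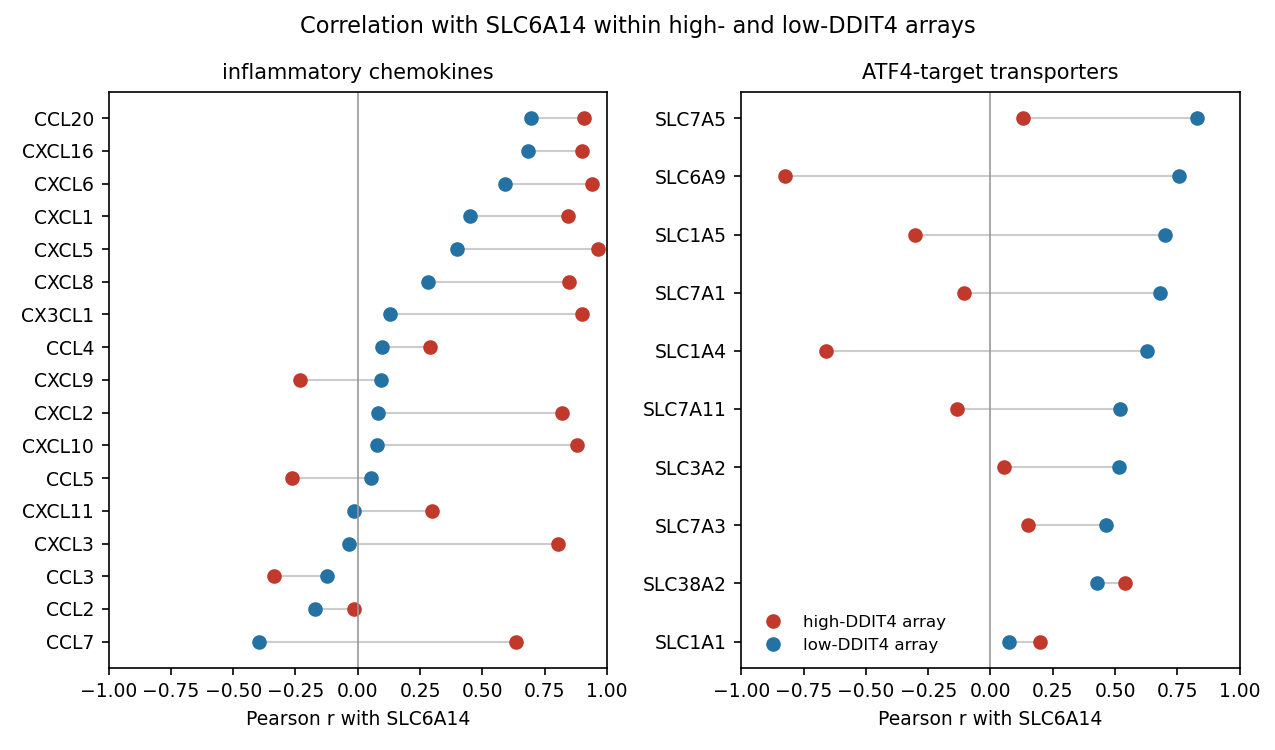
Pearson's r with SLC6A14 within the 10 high-DDIT4 arrays (red) and the 14 low-DDIT4 arrays (blue), for 17 chemokines (left) and 10 ATF4-target transporters (right). Blue points of all 10 transporters are above 0, and 9 of 10 fall between 0.43 and 0.83. Red points of CXCL5, CXCL6, CCL20, CXCL16 and CX3CL1 lie between 0.90 and 0.97.

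Of 10 other targets of ATF4, 5 fell with SLC6A14 within groups and 0 rose, where 2.55% of all genes fell and 4.68% rose. They were DDIT4, ASNS (asparagine synthetase), TRIB3 (a pseudokinase), PSAT1 (serine synthesis) and VLDLR (a lipoprotein receptor). VLDLR had a slope of -0.40 (SE 0.089, limma adjusted p = 0.0088) and ASNS one of -0.44 (SE 0.11, limma adjusted p = 0.015). Within the high-DDIT4 arrays the direction was mixed, with 6 of 10 slopes above 0, ATF3 rising, and ASNS and PSAT1 falling. Within the low-DDIT4 arrays 9 of 10 slopes were above 0 and 0 passed, and ASNS had r = 0.48. These genes, too, are tied to the DDIT4 split. In the fit with the product of the SLC6A14 and DDIT4 levels, 0 of the 9 tested (all but DDIT4) passed. With the DDIT4 level alone added to the fit, they were not counted as a list.

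Other amino acid transporters were less variable than SLC6A14 (SD 1.13), the next being SLC7A11 (SD 0.71) and SLC1A3 (SD 0.54). Within the SLC6 family, of which 17 members were analysed, the SD over 24 arrays ran from 0.097 to 0.40, with SLC6A9 the highest and a median of 0.15. SLC6A6, the taurine transporter, and SLC6A19, the neutral amino acid transporter B0AT1, rose with SLC6A14 within groups, the 2 that passed of 17, where 4.68% of all genes rose. SLC6A6 had r = 0.72 (slope 0.18, limma adjusted p = 0.0055) and SLC6A19 had r = 0.71 (slope 0.12, limma adjusted p = 0.026). Of 18 further amino acid transporters (SLC43A3 was not measured), 3 rose and 2 fell, where 4.68% of all genes rose and 2.55% fell. SLC7A10, a carrier of small neutral amino acids, had r = 0.88 (slope 0.12, limma adjusted p = 0.00092) and SLC7A6, the y+LAT2 exchanger, had r = 0.81 (slope 0.13, limma adjusted p = 0.0036). SLC1A3, a glutamate transporter, had r = 0.68, and the pair that fell were SLC1A2 and SLC43A1. The r values and slopes of these transporters include the 3 DMSO arrays with SLC6A14 under 7. SLC7A10 read 9.88 on DMSO 4 h replicate 1 and 9.93 and 9.86 on DMSO 8 h replicates 1 and 4. On every other array it read at least 10.19.

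The genes most like SLC6A14 over the 24 arrays, by Pearson's r of log2 values, were TACC1 and IER3, whose r was also high on either side of the DDIT4 gap. TACC1, a centrosomal coiled-coil protein, had r = 0.95, and 0.96 within high-DDIT4 and 0.95 within low-DDIT4 arrays. IER3, an early response gene, had r = 0.94, and 0.92 within each set. The r values over 24 arrays and within the high-DDIT4 arrays include the 3 DMSO arrays with SLC6A14 under 7. IER3 read 8.85, 8.95 and 8.36 on these and at least 9.14 on the other high-DDIT4 arrays. The other genes among the 10 highest were EPHA2 (0.92), PROC (0.92), KRT23 (0.91), DLAT (0.91), PCBP4 (0.90), PLK2 (0.90), DRAM1 (0.90) and CEACAM1 (0.89). EPHA2 is a receptor of ephrins, PROC encodes the anticoagulant protein C made by liver, and PLK2 is a polo-like kinase. IER3 ranged from 8.36 to 9.86 with a median of 9.39, lowest on DMSO 8 h replicate 4 and highest on silymarin 24 h replicate 3, as SLC6A14 was. KRT23 ranged from 6.79 to 10.08, and its slope of 0.67 per log2 of SLC6A14 (SE 0.071) was the steepest of these 10. By deviations from the group means the 5 highest were TACC1 (0.94), IER3, PROC, RAC1 and PCBP4. These genes were picked by likeness, so their values are a description.

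At the other end, FUCA1, a lysosomal fucosidase, had r = -0.915. MAN2B2, an alpha-mannosidase, had r = -0.880, EFHD1, a mitochondrial calcium-binding protein, -0.875, CNNM2 -0.859 and CREG1, a lysosomal glycoprotein, -0.855. FUCA1 ranged from 8.57 to 9.74 with a median of 9.10. It was highest on DMSO 8 h replicate 4 (9.74) and lowest on silymarin 4 h replicate 3 (8.57) and silymarin 24 h replicate 3 (8.59), the arrays where SLC6A14 was among its extremes. Within the low-DDIT4 arrays alone, MYC had the highest r with SLC6A14 (0.95), followed by SPRY4 (0.95), a feedback inhibitor of receptor tyrosine kinase signalling. Within the high-DDIT4 arrays TM4SF5 and LGR5, a receptor of R-spondins, had r = 0.98. UBD, a ubiquitin-like protein induced by inflammatory cytokines, had r = 0.98 there and 0.096 within the low-DDIT4 arrays. The r values within the high-DDIT4 arrays include the 3 DMSO arrays with SLC6A14 under 7. TM4SF5 read 8.53, 8.44 and 8.31 on these and at least 8.93 on the other high-DDIT4 arrays. UBD read 7.49, 7.44 and 7.20 on these and at least 8.84 on the others. These last genes were named after their values were seen.

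**Figure D4:**
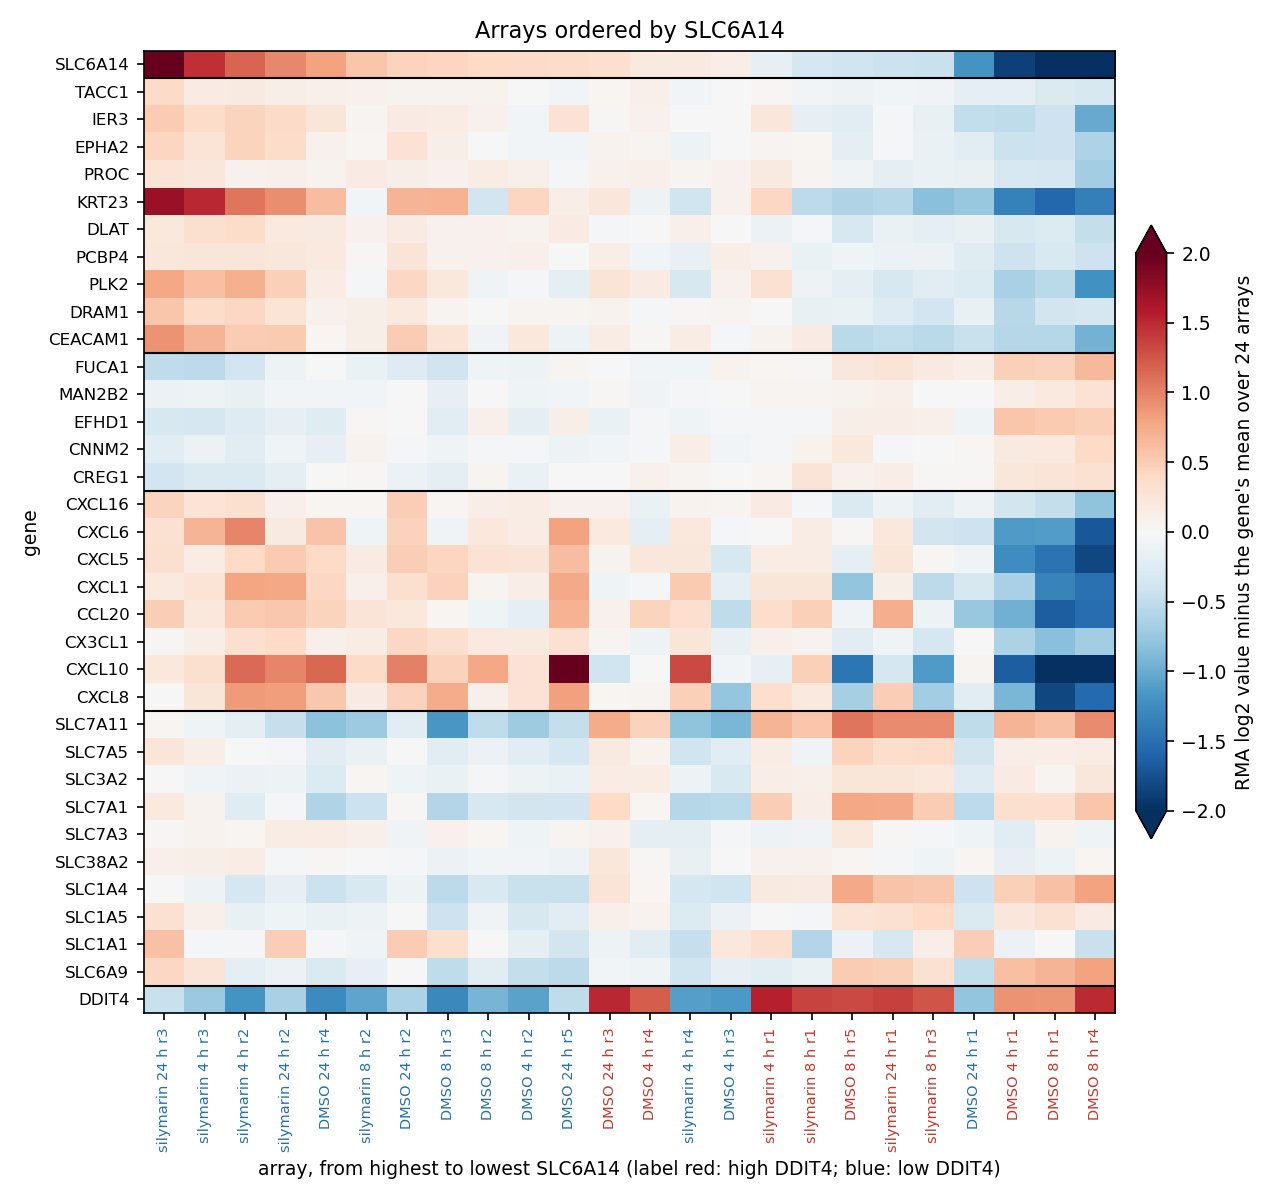
Each column is 1 of the 24 arrays, ordered from highest to lowest SLC6A14, and colours give the log2 value minus the gene's mean (clipped at 2 in either direction). Blocks are, from the top, SLC6A14, the 10 genes with the highest r, the 5 with the lowest r, 8 chemokines that passed within groups, 10 ATF4-target transporters and DDIT4. The chemokines are low at the right end, on the 3 DMSO arrays with SLC6A14 under 7.

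The measured neighbours of SLC6A14 on chromosome X did not show its spread. AGTR2, the type 2 angiotensin receptor, averaged 4.40 with an SD of 0.093 and r = 0.048 with SLC6A14, and CT83 averaged 7.81 with an SD of 0.17 and r = -0.25. AGTR2 lay between 4.24 and 4.57, far under the array medians of 7.04 to 7.18. At so low a level a shared spread could hardly be seen. The other neighbours, RNU6-154P and SLC6A14P1, were not among the genes tested. A pseudogene of SLC6A14 could share sequence with its probe set, and this was not tested.

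The arrays were alike as a whole, with medians of 7.04 to 7.18 and correlations between arrays of 0.989 to 0.998. Hepatocyte markers were high throughout, 9 of 10 measured with means of 11.4 to 13.3. Other markers were set beside SLC6A14 because it is known from mucosal epithelia. The summed log2 level of 6 of 6 mucosal markers was 42.1 to 44.4 with silymarin and 40.6 to 43.7 with DMSO at 4 h. It was 42.2 to 42.9 with silymarin and 40.6 to 44.3 with DMSO at 8 h, and 41.9 to 44.4 with silymarin and 41.5 to 44.9 with DMSO at 24 h. Of the 6, 4 had r above 0 with SLC6A14, AGR2 the highest (0.55) and MUC13 next (0.53), 2 had r below 0 (MUC1 and MUC4), and 0 passed within groups. AGR2 lay between 4.91 and 5.96, far under the array medians. Among 6 immune markers 2 had r above 0, and the median r was -0.17. LYZ, at a mean of 12.3, had r = 0.80 and passed within groups (limma adjusted p = 0.0005), while PTPRC, which defines leukocytes, averaged 4.33 and did not pass. Among the other markers, 1 of 9 hepatocyte (APOH), 1 of 5 stellate and fibroblast (PDGFRB) and 1 of 4 biliary markers (SOX9) rose with SLC6A14. APOA1 (hepatocyte) fell, and 0 of 5 endothelial markers passed. In these 3 lists r was above 0 for only 6 of 9, 2 of 5 and 2 of 4. Of all genes, 4.68% rose and 2.55% fell. The marker calls include the 3 DMSO arrays with SLC6A14 under 7. APOH read 11.10, 10.91 and 10.68 on these and at least 11.45 on all others. Of 12 acute phase genes 1 rose (HPX) and 2 fell (FGA and FGG), and of 10 G2/M genes 2 rose (KIF20A and PLK1), where 4.68% of all genes rose and 2.55% fell. PLK1 lay in separate ranges, at most 11.63 on high-DDIT4 and at least 11.70 on low-DDIT4 arrays, with r of 0.27 and 0.23 within them. In bulk RNA, fewer cells of a kind and less RNA per cell cannot be told apart, and the part of these markers in the SLC6A14 spread was not tested.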

How the data were processed

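Arrays were Affymetrix Human Gene 1.0 ST. The deposited values are on the log2 scale, and the submitters' processing notes name RMA and oligo without versions. Tests used these values as deposited.

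Of 28869 probe sets, 19302 had 1 gene symbol in the platform annotation, 1729 had several and 7838 were not listed. The probe set with the highest mean was kept for each gene. Contrasts of 6 group means were fitted over 18274 genes and 24 arrays with lmFit and eBayes (limma 3.58.1, R 4.3.3), two-sided, with Benjamini-Hochberg adjustment over all genes and a threshold of 0.05. Slopes on SLC6A14 were fitted likewise over the other 18273 genes, and tested on simulated data. Correlations used 100000 resamples, or all orders with under 10 arrays (Python 3.11.15, numpy 2.4.6, scipy 1.17.1). The number of arrays limits the precision. The gene, lists and motifs were chosen with earlier results of these data known. Named genes are list members, the 10 highest and 5 lowest by r, the 5 highest by deviations, the 2 strongest of each other list and the neighbours. Alternatives were other scalings, a filter on dim genes, other probe set rules, trend and weights, covariates and leaving out arrays.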

Additional observations from a re-analysis of the deposited data

Results flagged for a closer look

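SLC6A14 on DMSO 4 h replicate 1 was 6.35, far from the other 3 arrays of its group, with a gap of 0.892 of the group's range against a critical value of 0.829. SLC6A14 on DMSO 24 h replicate 1 was 7.01, with a gap of 0.766 of the range against 0.71 for 5 arrays. The first array was high and the second low in DDIT4. In all, 4 groups were tested in this way and 2 groups of 3 arrays were not, and chance alone picks out about 1 in 20 groups.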

How the results depend on the processing

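The silymarin differences in SLC6A14 kept their sign and stayed short of the threshold under every alternative run. Leaving out each array gave 0.42 to 1.22 at 4 h, 0.34 to 1.17 at 8 h, 0.11 to 1.37 at 24 h and 0.63 to 1.05 averaged. The change of the difference between 4 and 8 h turned to 0.16 with array weights and 0.17 with DDIT4 as a covariate, and that between 4 and 24 h to 0.16 with DDIT4. Leaving out each array gave -0.61 to 0.41, -0.84 to 0.42 and, between 8 and 24 h, -0.72 to 0.53. DMSO at 24 h minus 4 h ran from -0.085 (without DMSO 4 h replicate 1) to 0.78.

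Genes associated with SLC6A14 within groups numbered 1322, with 8 chemokines and 1 transporter. Array weights gave 2233 genes and 4 transporters, and no group means 2689 and 2. Adding DDIT4 gave 198 genes, 4 chemokines and 0 transporters, and a threshold of 0.01 gave 391 genes and 0 transporters. Repeated quantile normalization and leaving out dim genes each gave 2 transporters. High-DDIT4 arrays alone gave 746 genes, low-DDIT4 arrays alone 104 genes, 0 chemokines and 2 transporters, and 0 of each with group means. Without the 3 arrays under 7 there were 640 genes, 1 chemokine and 0 transporters. Leaving out each array gave 572 to 1874 genes, 7 to 9 chemokines and 0 to 4 transporters. Genes numbered 572 without DMSO 8 h replicate 4, 595 without silymarin 24 h replicate 1, 650 without DMSO 4 h replicate 1 and 677 without DMSO 8 h replicate 3, each with 0 transporters, and transporters numbered 4 without DMSO 24 h replicate 1, 3 without DMSO 8 h replicate 5, and 2 without silymarin 4 h replicates 3 or 4, DMSO 4 h replicate 4, silymarin 24 h replicate 3 or DMSO 24 h replicate 3. The cause was not tested.

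With the replicate number as a block there were 52 genes, 5 chemokines and 0 transporters, and the 4 h difference was 0.95. Of 52 same-numbered pairs, 27 correlated over 0.1, with a median r of 0.11 against -0.039 for other pairs. Whether the numbers pair the samples cannot be told from these values, and the labels do not say. The slopes within groups may therefore hold differences between replicate numbers.

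In high-DDIT4 arrays without the 3 under 7, r turned to -0.46 for CXCL3 and -0.23 for CCL7.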
